A study of Bos taurus with 6 samples.

Results

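The Krüppel-like factors (KLFs) are transcription factors that bind GC-rich and CACCC elements of promoters through zinc fingers at the end of the protein. Their N-terminal parts differ and sort the family into branches. KLF2, KLF4, KLF5, KLF6 and KLF7 belong to a branch that mostly activates transcription, KLF3 to one that represses through the corepressor CtBP, and KLF9, KLF10, KLF13 and KLF16 to one that recruits the corepressor SIN3A. In mouse embryonic stem cells KLF2, KLF4 and KLF5 help to hold the naïve state of pluripotency, and KLF4 is one of the reprogramming factors. These 10 genes were followed here, matched by symbol in the deposited TPM table and by Entrez gene identifier in the table of raw counts, and all 10 were found among the 19163 genes of the count table.

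The cells were F7, a bovine embryonic stem cell line of Holstein Friesian origin derived from an embryo fertilized in vitro. F7 was grown on mouse embryonic fibroblasts (MEFs) arrested with mitomycin C, which stay alive without dividing (MC-F7, called 1M-F7 in the labels), or on MEFs fixed with methanol, which are dead (MT-F7), and the deposited design text gives 15 passages for both groups. Each group had 3 libraries of 1 cell line. The labels do not say whether the 3 came from separate cultures, so the SDs and p-values measure the spread between these libraries, which may be technical. The culture medium held FGF and the WNT pathway inhibitor IWR1 in both groups, and it was renewed daily for MC-F7 and every other day for MT-F7. Before RNA extraction, dissociated cells were left on gelatin and the floating cells were collected.

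The libraries held 21958386 to 24933430 counts on genes. The 10 KLF genes together took 1285 to 2364 of them, or 0.00529% to 0.0101% of a library, so these were weakly expressed genes and counting error was large for the lowest. A gene with at most 3 counts was taken as not detected, a limit equal to 0.116 to 0.140 CPM (counts scaled to a common library size after TMM). Mitochondrial transcripts took 16.3% to 28.3% of the counts and were highest in replicate 3 of both groups. Among cell type markers, 6 of 8 pluripotency genes were in the count table and all 6 were detected. Their levels summed to 1345 to 2014 CPM in MC-F7 and 738 to 854 CPM in MT-F7, with 5 called lower in MT-F7 (adjusted p under 0.05) and 0 higher. Most of this sum was POU5F1, with means of 1196 CPM in MC-F7 and 522 CPM in MT-F7. All 12 fibroblast markers were detected, summing to 224 to 301 CPM in MC-F7 and 342 to 395 CPM in MT-F7, with 3 called higher in MT-F7 and 1 lower. Most of this sum was COL1A1, which was not called, with means of 205 CPM in MC-F7 and 268 CPM in MT-F7. The 7 trophectoderm markers summed to 51.3 to 77.1 CPM in MC-F7 and 6.50 to 7.41 CPM in MT-F7, with 2 lower, and CDX2 and HAND1 at 0 counts throughout. Nearly all of this sum was KRT7, with means of 63.7 CPM in MC-F7 and 6.28 CPM in MT-F7. The 6 endothelial markers summed to 6.19 to 9.26 CPM in MC-F7 and 15.5 to 18.0 CPM in MT-F7, with 2 called higher and 1 lower. Of these, TEK rose from 2.53 to 12.7 CPM, while VWF fell from 3.60 to 1.46 CPM. The 7 mesendoderm markers summed to 10.7 to 11.9 and 3.98 to 4.08 CPM, with 2 lower. The 6 neural markers in the count table summed to 476 to 547 and 570 to 653 CPM, with 1 higher. Most of this sum was NES (means of 312 CPM in MC-F7 and 412 CPM in MT-F7) and TUBB3 (202 and 174 CPM), neither of them called. The called gene was PAX6, from 2.63 to 19.9 CPM. Over all tested genes, 11.3% were called lower in MT-F7 and 11.9% higher. KLF genes are also used in several of these cell types, and mouse reads from feeders that align to bovine genes would be counted too. Only MC-F7 had live feeders. The paper reports a higher alignment rate to the bovine genome for MT-F7 than for MC-F7. It proposes that fixed feeders left less feeder cell contamination. Mouse reads counted in MC-F7 would raise its KLF values, and this cannot be told apart here from a fall in MT-F7. The part of other cells and of mouse reads in the KLF values was not tested. In these bulk RNA samples, fewer cells of a type and less RNA per cell cannot be told apart.

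Summed over the 10 genes, KLF transcripts were less abundant in MT-F7 cells. The 10 genes summed to 103, 98.0 and 88.1 CPM in the MC-F7 libraries and to 65.9, 71.0 and 54.6 CPM in the MT-F7 libraries, so the mean of MT-F7 was 0.663 times that of MC-F7 and the groups did not overlap. Of the 10 genes, 9 had enough counts for the test across all genes (edgeR's quasi-likelihood test with Benjamini-Hochberg adjustment over 13001 genes). KLF13, KLF6, KLF3 and KLF10 fell in MT-F7, and 5 genes did not pass the threshold of an adjusted p under 0.05. These 4 members summed to 67.6 CPM in MC-F7 and 38.7 CPM in MT-F7. The other 6 members summed to 28.7 ± 3.82 and 25.2 ± 5.82 CPM with groups that overlapped. This split follows from the calls, which were made on the same libraries, and is not a separate result. As background, 11.3% of all tested genes were called lower in MT-F7 and 11.9% higher. The 4 called members were also the 4 whose groups did not overlap, all lower in MT-F7, where 40% of all tested genes had groups that did not overlap (20.1% lower and 19.9% higher in MT-F7). No KLF member was called higher, at the adjusted threshold or at an unadjusted p under 0.05, and DESeq2 also called 0. The median log2 fold change of the 9 tested members was -0.67, beside -0.0026 over all tested genes. Without replicate 3 of both groups, an alternative chosen after seeing the data, 4 members were called lower again. Without MC-F7 replicate 2 the count was 2, and KLF3 and KLF10 were the members lost.

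**Figure D1:**
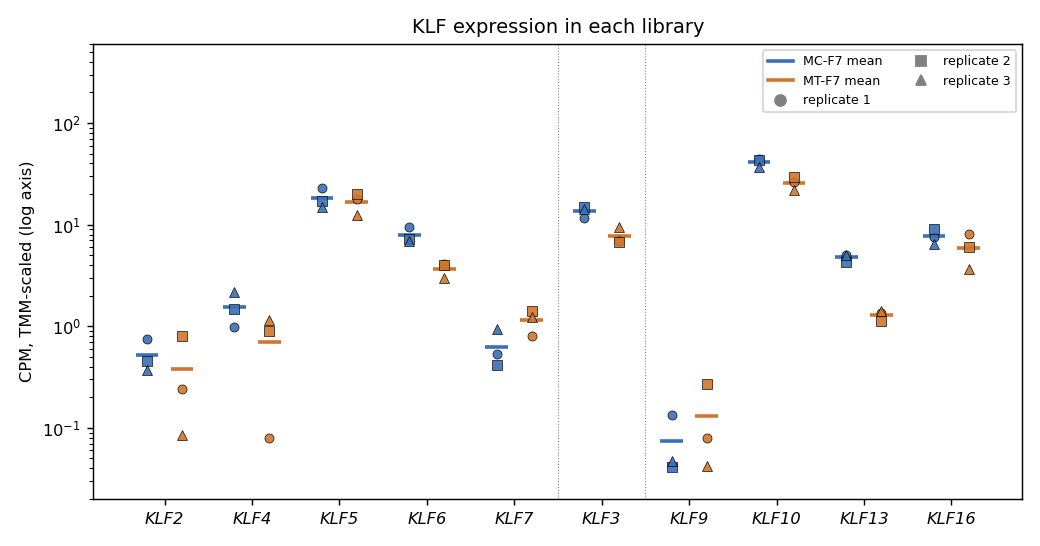
Expression of the 10 KLF genes in CPM (TMM-scaled, log axis), with 1 symbol per library, its shape giving the replicate number and the line the group mean; dotted lines divide the activating branch, KLF3 and the SIN3A-binding branch. KLF13, KLF6, KLF3 and KLF10 show no overlap between MC-F7 and MT-F7, whereas KLF5 lies between 12.4 and 22.8 CPM in both groups.

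In the SIN3A-binding branch, KLF13 had the largest fall among the called members. KLF13, which takes part in heart development and in cytokine expression of T lymphocytes, had 113, 103 and 108 counts per library in MC-F7, against 34, 29 and 33 in those of MT-F7. The libraries of each group lay close together and far from those of the other. Its level fell from 4.77 ± 0.436 to 1.29 ± 0.151 CPM (SD, n = 3), which is 3.69-fold lower (log2 fold change -1.88, SE, the standard error, 0.270, adjusted p = 2.99e-04). The call held in each of the 6 fits that left out 1 library, with log2 fold changes between -1.96 and -1.78.

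KLF10, the TGFβ-inducible early gene, was the KLF with the most counts in every library. It had 995, 1038 and 791 counts per library in MC-F7, against 656, 765 and 522 in those of MT-F7. The highest MT-F7 library, at 29.5 CPM, stayed below the lowest MC-F7 library, at 37.0 CPM. The mean fell from 41.3 ± 3.80 to 25.9 ± 3.70 CPM (log2 fold change -0.67, SE 0.163, adjusted p = 0.00989). The call was lost without MC-F7 replicate 2 (adjusted p = 0.0549) and in the 3 tests of TPM values with limma (adjusted p from 0.0755 to 0.113).

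KLF16, another SIN3A-binding repressor, had 170, 217 and 139 counts per library in MC-F7, against 205, 155 and 87 in those of MT-F7. The groups overlapped, and MT-F7 replicate 1 exceeded 2 of the 3 MC-F7 libraries. Its log2 fold change was -0.37 with a 95% interval from -0.95 to 0.22 (adjusted p = 0.364). KLF9, which responds to glucocorticoid and thyroid hormone, had 3, 1 and 1 counts per library in MC-F7, against 2, 7 and 1 in those of MT-F7. All MC-F7 libraries and 2 of the MT-F7 libraries were at or under 3 counts, so no difference was detectable in KLF9 at this depth and it was not tested.

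KLF3 represses its targets together with CtBP and acts in blood and fat cell differentiation. It had 264, 363 and 302 counts per library in MC-F7, against 175, 176 and 223 in those of MT-F7, and the groups did not overlap. Its level fell from 13.6 ± 1.74 to 7.75 ± 1.49 CPM (log2 fold change -0.81, SE 0.199, adjusted p = 0.0102). The call was lost without MC-F7 replicate 2 (adjusted p = 0.0604), without MT-F7 replicate 1 (adjusted p = 0.0514) and with limma on the deposited values as log2(TPM + 1) or log2(TPM + 0.1) (adjusted p = 0.0693 and 0.0615).

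Among the activating members, KLF6 was the one called. KLF6, a gene induced by injury and known as a tumor suppressor, had 214, 176 and 147 counts per library in MC-F7, against 102, 103 and 70 in those of MT-F7. Every MT-F7 library lay below every MC-F7 library. Its level fell from 7.88 ± 1.39 to 3.67 ± 0.607 CPM (log2 fold change -1.10, SE 0.231, adjusted p = 0.00437). KLF6 stayed called whichever single library was left out, and limma on log2(TPM + 0.1) was the 1 alternative in which it was not (adjusted p = 0.0521).

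KLF5 is needed for the formation of the inner cell mass and trophectoderm in mouse embryos and had far more counts than KLF2 and KLF4 in every library. Its counts were 515, 409 and 321 for MC-F7, against 452, 522 and 291 for MT-F7. The groups lay over each other, at 18.2 ± 4.04 and 16.8 ± 4.03 CPM. The 95% interval of its log2 fold change ran from -0.58 to 0.35 around -0.12, and the sign changed without MC-F7 replicate 1 (0.077) and without MT-F7 replicate 3 (0.060).

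KLF4 and KLF2 had few counts. KLF4 had 22, 36 and 47 counts per library in MC-F7, against 2, 23 and 27 in those of MT-F7. MT-F7 replicate 1 stood apart with 2 counts. MT-F7 replicate 2, at 0.888 CPM, was also below the lowest MC-F7 library, at 0.973 CPM, and MT-F7 replicate 3, at 1.15 CPM, lay within the MC-F7 range. The log2 fold change of KLF4 was -1.14 (95% interval -2.47 to 0.19, adjusted p = 0.207), and without MT-F7 replicate 1 it was -0.62. KLF2, better known from quiescent T cells and the flow response of endothelium, had 17, 11 and 8 counts per library in MC-F7, against 6, 21 and 2 in those of MT-F7. Its 3 MT-F7 libraries spread around the MC-F7 ones, and the 95% interval of its log2 fold change, -1.94 to 1.03, left room for large changes in both directions.

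KLF7, which acts in neuron and axon growth, was the only tested member with a fitted change above 0. It had 12, 10 and 20 counts per library in MC-F7, against 20, 37 and 29 in those of MT-F7. The lowest MT-F7 library was below the highest MC-F7 library in CPM, and the log2 fold change of 0.88 did not pass (95% interval -0.11 to 1.87, adjusted p = 0.187). It was above 0 in all 17 alternative fits and passed in 0 of them.

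**Figure D2:**
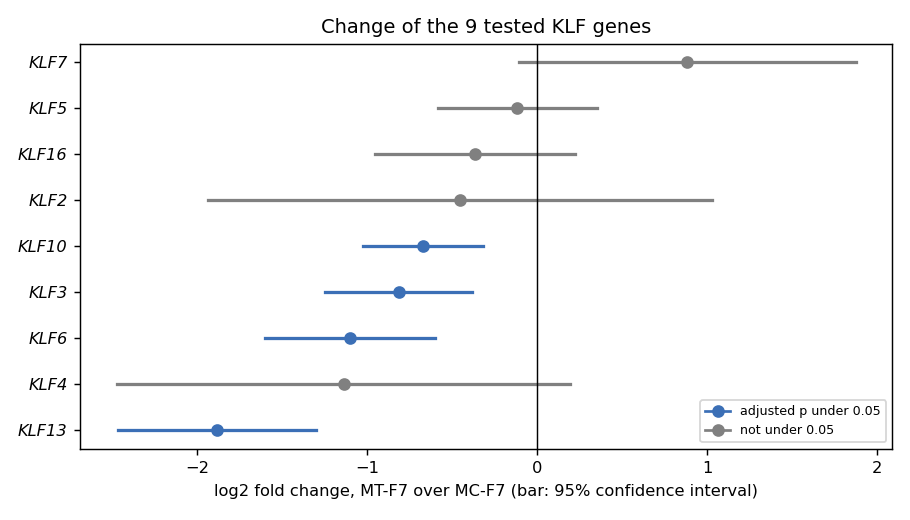
Log2 fold change of the 9 tested KLF genes in MT-F7 over MC-F7 (horizontal axis) with 95% confidence intervals as bars; blue marks an adjusted p under 0.05. The 4 blue intervals, from KLF13 at -1.88 to KLF10 at -0.67, lie wholly below 0, and the wide bars of KLF2, KLF4 and KLF7 go with their low counts.

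The libraries also differed within groups. KLF2, KLF5, KLF6, KLF10 and KLF16, 5 of the 10 members, had their lowest CPM in replicate 3 of MC-F7 and again in replicate 3 of MT-F7, the libraries with the highest mitochondrial share. The summed KLF level was likewise lowest in replicate 3 of each group, at 88.1 and 54.6 CPM. Across all tested genes, the deviations of the replicate 3 libraries from their group means correlated at 0.544, so a shared shift was not limited to KLF genes. How many of all genes were lowest in replicate 3 of both groups was not counted. Whether the mitochondrial share had a part in these low values was not tested. The fall of KLF10, KLF6, KLF3 and KLF13 did not rest on these libraries, since without replicate 3 of both groups the log2 fold changes were -0.63, -1.04, -0.94 and -1.88.

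Each member's share of the counts summed over these 10 genes describes their composition while the total fell. KLF10, KLF5 and KLF3 together held 76.0% ± 0.808 of this sum for MC-F7, against 79.3% ± 1.55 for MT-F7, but over all 17 KLF genes of the count table the order turned, with means of 53.6% and 50.5% and groups that overlapped narrowly (52.0% to 54.8% and 48.7% to 52.0%). The share of KLF5 was 22.2%, 17.3% and 17.0% for MC-F7, against 27.3%, 28.4% and 22.6% for MT-F7, so KLF5 took a larger part of the 10-gene sum in MT-F7. Over all 17 KLF genes this separation was lost, since the KLF5 share was 11.8% to 15.7% for MC-F7 and 13.7% to 18.6% for MT-F7. In the 10-gene sum the mean KLF5 share rose from 18.8% ± 2.88 to 26.1% ± 3.06, a difference of 7.29 points. KLF13 moved the other way, from 4.98% ± 0.696 to 2.07% ± 0.495, as did KLF6, from 8.15% ± 0.930 to 5.74% ± 0.378. KLF10 held 42.9% ± 0.966 on mitomycin C-treated feeders, against 40.6% ± 0.980 on fixed ones. KLF7 moved from 0.667% ± 0.345 to 1.83% ± 0.548.

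The shares of KLF5, KLF6, KLF7, KLF10 and KLF13 in the 10-gene sum did not overlap between the groups, and those of the other 5 did. In CPM, 40% of all tested genes had groups that did not overlap, while the groups of KLF5 and KLF7 overlapped. KLF7 had 20 counts in both MC-F7 replicate 3 and MT-F7 replicate 1, and its shares there, 1.06% and 1.21%, differed because the sum was smaller in MT-F7. With all 17 KLF genes as denominator 4 remained separate (KLF6, KLF7, KLF10 and KLF13), and without single libraries 5 or 6 members were separate. KLF3 held 14.2% ± 2.53 (MC-F7) and 12.5% ± 4.23 (MT-F7) of the counts, and KLF16 held 7.96% ± 1.06 and 9.20% ± 2.89, a difference whose sign turned without MT-F7 replicate 1 (-0.35 points in place of 1.24). KLF4 held 1.65% ± 0.783 and 1.16% ± 0.993, KLF2 held 0.540% ± 0.166 and 0.554% ± 0.520, and KLF9 held 0.0748% ± 0.0473 and 0.193% ± 0.164. In an exact two-sided permutation test of each share, 3 libraries against 3 cannot give a p below 0.1, and KLF5, KLF6, KLF7, KLF10 and KLF13 reached that smallest value. After Benjamini-Hochberg adjustment over the 10 members, the p of these members in this test was 0.2. Shares of 1 sum depend on each other, so these are not separate results. KLF2, KLF4 and KLF5 together took 21.0% ± 2.45 in MC-F7 and 27.8% ± 2.95 in MT-F7, nearly all of it KLF5 (over all 17 KLF genes 14.8% ± 1.78 and 17.8% ± 2.57, overlapping), while their summed level was 20.3 ± 3.68 and 17.9 ± 4.15 CPM with overlapping groups.

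**Figure D3:**
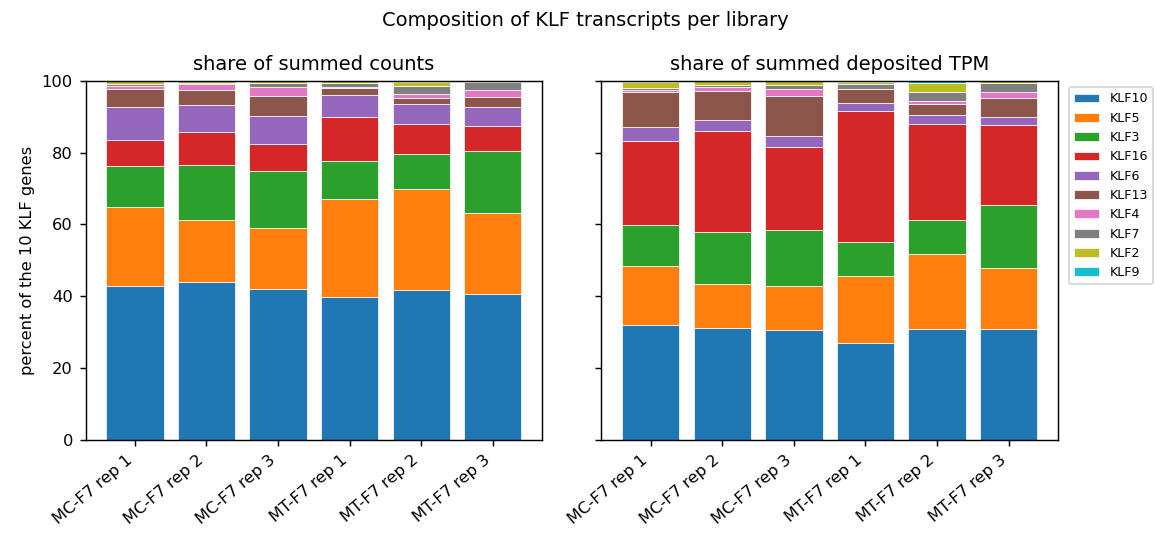
Composition of the 10 KLF genes in each library as percent of their summed counts (left) and of their summed deposited TPM (right), with 1 stacked bar per library and 1 color per gene. The KLF5 part is larger in MT-F7, with 22.6% to 28.4% of the counts, than in MC-F7, with 17.0% to 22.2%, and the KLF13 part is smaller.

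Counts grow with transcript length, so levels of different genes were compared in the deposited TPM values. These divide the count of a gene by a factor of its own that is the same in all libraries. They summed to 154442 (MC-F7 replicate 3) to 163945 (MT-F7 replicate 2) per library, below the fixed total that TPM are scaled to. The levels printed are therefore lower than usual TPM, while shares and the order of genes within a library do not depend on this total. On this scale KLF10 and KLF16 led in both groups, with 2.63 ± 0.368 and 2.10 ± 0.471 TPM in MC-F7 and 1.81 ± 0.339 and 1.79 ± 0.710 TPM in MT-F7, and their libraries overlapped. KLF3 and KLF5 followed in MC-F7 at 1.16 ± 0.187 and 1.15 ± 0.269 TPM, again overlapping. KLF13, at 0.802 ± 0.0371 TPM, lay apart from KLF5 above and from KLF6, at 0.286 ± 0.0536 TPM, below. KLF4, KLF2 and KLF7 lay between 0.0440 and 0.144 TPM with overlapping neighbors, and KLF9 was lowest at 0.00884 ± 0.00612 TPM. In MT-F7 KLF5, at 1.17 ± 0.328 TPM, came before KLF3, at 0.715 ± 0.103 TPM, with overlapping libraries, and KLF7, at 0.126 ± 0.0374 TPM, stood beside KLF6, at 0.146 ± 0.0299 TPM. KLF13 dropped to 0.238 ± 0.0196 TPM in MT-F7 and remained separate from both neighbors.

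Per length, the share of KLF10 overlapped between the groups (31.2% ± 0.713 and 29.6% ± 2.18), while KLF13 had the largest loss, from 9.67% ± 1.43 to 4.01% ± 1.07. KLF5 rose from 13.6% ± 2.41 to 18.8% ± 1.93 of the summed TPM.

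**Figure D4:**
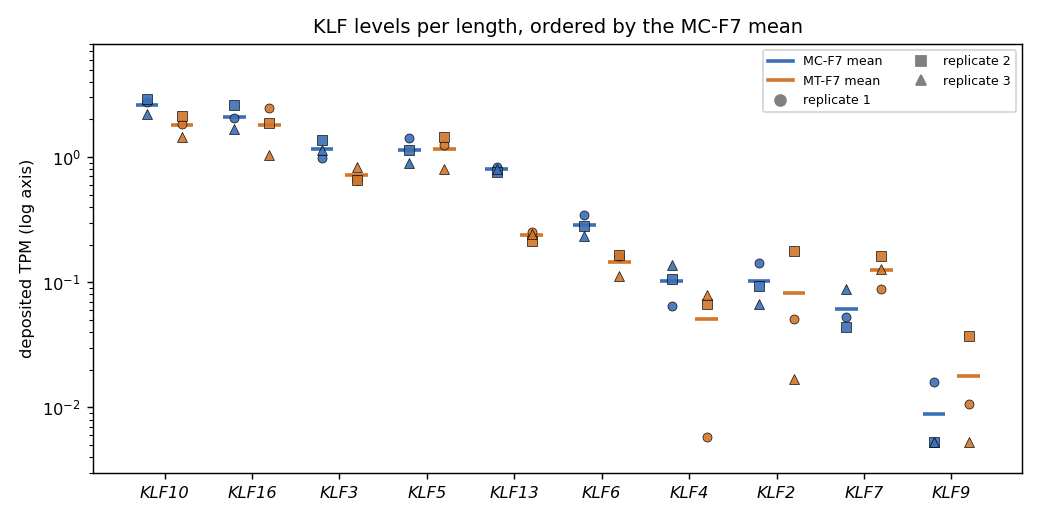
Deposited TPM (log axis) of the KLF genes, ordered by the MC-F7 mean, with 1 symbol per library and lines at the group means. KLF10 and KLF16 lead in both groups, KLF13 stands alone at 0.802 TPM in MC-F7 and at 0.238 TPM in MT-F7, and MT-F7 replicate 1 of KLF4 is at 0.00586 TPM.

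The remaining 7 KLF genes of the count table had mostly few reads, and 2 were tested. KLF11, the closest relative of KLF10, had 520, 483 and 459 counts per library in MC-F7, against 415, 534 and 388 in those of MT-F7 (log2 fold change -0.27, 95% interval -0.62 to 0.09, adjusted p = 0.275). KLF15 had 427, 437 and 356 counts per library in MC-F7, against 448, 421 and 426 in those of MT-F7 (log2 fold change -0.04, 95% interval -0.38 to 0.30). Both had groups that overlapped, and 0 of these 2 were called by edgeR, by DESeq2 or at an unadjusted p under 0.05. KLF8, a CtBP-binding relative of KLF3, had 1, 2 and 0 counts per library in MC-F7, against 7, 15 and 12 in those of MT-F7. Its MT-F7 mean was 3.44-fold the floor of 3 counts per library in MC-F7, counting error in MT-F7 aside. KLF8 was too low for the filter of the main edgeR fit and was not tested there, and it was singled out after its values were seen. It passed in the edgeR fit of all genes with at least 1 count (adjusted p = 0.0297) and with limma on TPM (adjusted p from 0.0136 to 0.0232). In these fits MC-F7 was still at or under 3 counts. KLF1 and KLF12 had at most 14 counts in a library, KLF14 had 2 counts in 1 library, and KLF17 had 0 counts in all 6, which allows up to 0.116 to 0.140 CPM.

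SP factors share the zinc fingers and the GC-rich binding sites of the KLFs. Of 9 SP genes 7 were tested, and 0 passed in either direction with edgeR or DESeq2. SP4 was the 1 gene with an unadjusted p under 0.05, at 1.58 CPM in MC-F7 and 0.775 CPM in MT-F7 (adjusted p = 0.0894). SP1 and SP3, the broadly expressed members, had log2 fold changes of 0.20 and -0.36. The 7 SP log2 fold changes had a median of 0.10.

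Among 13 cofactors and ubiquitin ligases of KLF proteins, 12 were in the count table and tested, and 1 passed. CREBBP, an acetyltransferase that coactivates several KLFs, rose from 76.1 to 110.3 CPM (log2 fold change 0.54, adjusted p = 0.0266). It did not pass in 4 of the 6 fits that left out 1 library (adjusted p up to 0.144 without MC-F7 replicate 2), namely those without MC-F7 replicate 1 or 2 or without MT-F7 replicate 1 or 3. The partners of the repressive branches did not pass, with log2 fold changes of -0.14 for SIN3A, 0.33 for CTBP1 and 0.12 for CTBP2.

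Of 18 genes that lie upstream of KLF genes, 17 were tested, with 2 lower and 2 higher in MT-F7, shares near the 11.3% lower and 11.9% higher of all tested genes, and a median log2 fold change of 0.01. On the LIF pathway, which induces KLF4 in mouse cells, JAK1 fell from 31.1 to 14.0 CPM (log2 fold change -1.16, adjusted p = 3.92e-04). IL6ST, the shared receptor subunit gp130, fell from 5.89 to 3.62 CPM (log2 fold change -0.70, adjusted p = 0.0414). Leaving out MC-F7 replicate 1 kept this call, and leaving out any other library ended it (adjusted p up to 0.136). STAT3, the transcription factor of this pathway, had 14.0 CPM in MC-F7 and 19.9 CPM in MT-F7 with groups that did not overlap, and did not pass (log2 fold change 0.50, adjusted p = 0.0597). JAK2 did not pass either (log2 fold change -0.42), and LIFR had 1 to 12 counts and was not tested. MAP2K5, the kinase above ERK5 on the route to KLF2, rose from 18.9 to 29.6 CPM (log2 fold change 0.65, adjusted p = 0.00716). SMAD2, on the TGFβ route to KLF10, rose from 24.5 to 38.4 CPM (log2 fold change 0.64, adjusted p = 0.00994), and did not pass without MC-F7 replicate 2 or without MT-F7 replicate 1 (adjusted p up to 0.0624).

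Of 12 genes of the naïve pluripotency network in which KLF2, KLF4 and KLF5 act, 8 were tested, with 4 lower, 1 higher and a median log2 fold change of -0.52. Over all tested genes, 11.3% were called lower and 11.9% higher. POU5F1, NANOG, ESRRB and ZFP42 fell (log2 fold changes -1.19, -2.02, -2.52 and -2.73, adjusted p from 1.14e-05 to 0.00119). TBX3 rose, from 3, 6 and 0 counts in MC-F7 to 35, 53 and 37 in MT-F7 (adjusted p = 0.00119). It passed the filter on low counts only through MT-F7, and its size of change is not given because MC-F7 was near the limit of 3 counts. PRDM14, SALL4 and FBXO15 had log2 fold changes from 0.15 to 0.33 and did not pass. TFCP2L1 had 4 counts in 1 library and none in the others.

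Genes known as KLF targets in other cells moved in both directions. Of 14 such genes 12 were tested, 4 lower and 3 higher, with a median log2 fold change of -0.46. The shares over all tested genes were 11.3% lower and 11.9% higher. CDH1, the E-cadherin gene that KLF4 activates in epithelium, fell from 371 to 98.1 CPM, and PDGFA, a KLF5 target in smooth muscle, from 60.7 to 17.2 CPM (log2 fold changes -1.92 and -1.82, adjusted p = 5.2e-06 and 4.87e-06). TGFB1, which KLF6 can activate, fell from 25.8 to 14.4 CPM (log2 fold change -0.84, adjusted p = 0.00158). SMAD7, which KLF10 represses, fell from 14.9 to 9.89 CPM (adjusted p = 0.0295). Leaving out MT-F7 replicate 1 kept this call, and leaving out any other library ended it (adjusted p up to 0.108). CDKN1A, the cell cycle inhibitor p21 that KLF4 and KLF6 activate, rose from 11.5 to 24.9 CPM (log2 fold change 1.12, adjusted p = 3.23e-04), and S1PR1, a KLF2 target in lymphocytes, rose from 1.26 to 4.29 CPM (log2 fold change 1.76, adjusted p = 0.00271). TAGLN, a smooth muscle gene that KLF4 represses, rose from 165 to 291 CPM (log2 fold change 0.82, adjusted p = 0.0128) and did not pass without MT-F7 replicate 2 (adjusted p = 0.0519). Which factor controlled these genes in F7 was not measured.

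**Figure D5:**
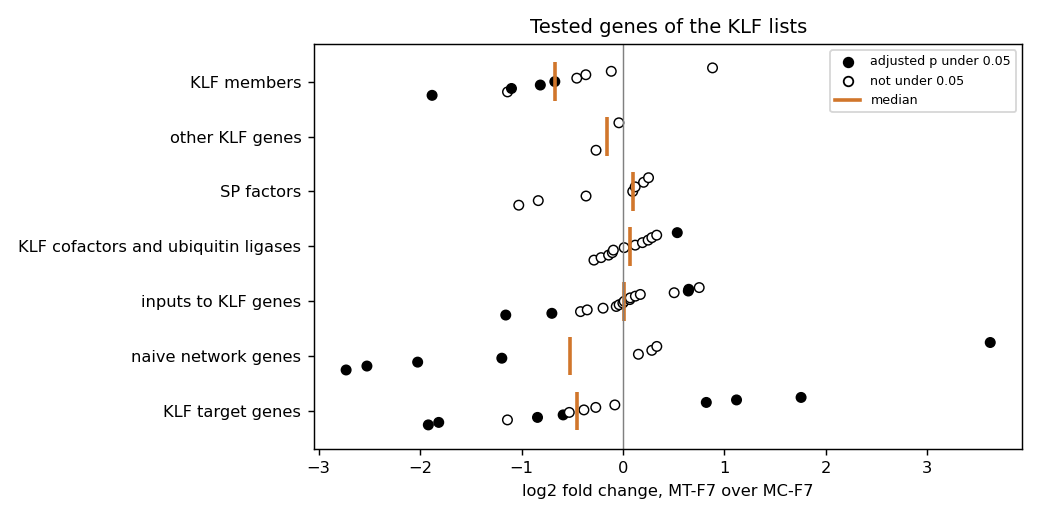
Log2 fold change of each tested gene in MT-F7 over MC-F7 (horizontal axis) for the KLF members and the 6 lists around them, with filled points for an adjusted p under 0.05 and an orange line at the median. The members have a median of -0.67, the SP factors of 0.10 with no filled point, and the naïve network spreads from ZFP42 at -2.73 to TBX3, whose fitted value is set against 3, 6 and 0 counts in MC-F7.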

How the data were processed

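RNA-seq of MC-F7 and MT-F7 was used, with 3 libraries each. The authors used the Ensembl genome of Bos taurus, HISAT2 2.0.5 for alignment and featureCounts 1.5.0-p3 for counting (versions from the submitters' processing notes), and deposited raw counts by Entrez gene identifier. The genome build was not given in the sources used here. The authors also deposited values they call TPM. These summed to 154442 to 163945 per library, so they are not scaled to the fixed total of TPM. For each KLF gene the ratio of deposited TPM to count was the same in all 6 libraries, so library size remains in these values, and their length factors were not checked. The library kit is not described as strand-specific. In RefSeq, KLF9 overlaps SMC5, whose reads may not be told apart from those of KLF9. Symbols came from RefSeq (ARS-UCD2.0 table), which matched 19074 of 19163 identifiers.

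The filter was filterByExpr with a minimum count of 10 and a minimum total of 15. Counts were scaled by TMM and tested with edgeR 4.0.16 (quasi-likelihood, two-sided, no block, Benjamini-Hochberg adjustment) under R 4.3.3. Tables were made with Python 3.11.15 and scipy 1.17.1. Steps were tested on simulated data. Alternatives were RLE factors, library size only, DESeq2 1.42.0, other filters, removal of mitochondrial genes, a replicate block, leaving out libraries, and limma 3.58.1 on TPM with a pseudocount of 1 or 0.1. TPM rescaled to the same total in each library, and leaving out replicate 3 of both groups, were chosen after seeing the data. Named were all 10 members and, from each list, genes with an adjusted p under 0.05, or the gene with the smallest p where none passed, and others chosen after their values were seen. Members and lists were chosen with earlier results of these data known. Intervals and limits cover counting error or library spread only, since reads copied from 1 molecule cannot be told apart. Some listed genes, such as EP300 and THBD, were not analysed here.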

Additional observations from a re-analysis of the deposited data

How the results depend on the processing

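KLF13 was called lower in all 17 alternatives, KLF6 in 16, and KLF3 and KLF10 in 13 each, and these 4 were below 0 in all of them. The count of members called lower was 4 or 5 in the alternatives on all 6 libraries' counts, 2 to 4 when libraries were left out, 3 with limma on rescaled TPM, and 2 and 1 with limma on TPM at a pseudocount of 1 and 0.1. The cause was not tested. KLF5 changed sign without MC-F7 replicate 1 (0.077), without MT-F7 replicate 3 (0.060), and with limma on TPM at a pseudocount of 1 (0.0083) or 0.1 (0.0082), and the range when libraries were left out was -0.26 to 0.077. With the replicate block 5 members were lower, since KLF4 passed (log2 fold change -1.33, adjusted p = 0.0376), and no other member's call changed. The blocked fit gave 4674 calls over all genes in place of 3016. The replicate numbers were not taken as pairs, since the deviations from the group means of same-numbered libraries correlated across genes at 0.188, 0.0893 and 0.544, and 2 of 6 libraries correlated best with their own number. When libraries were left out, the other KLF genes had 0 to 1 called higher (KLF8, which passed the filter there only through MT-F7), the SP factors 0 to 1 lower, the cofactors 0 to 2 higher, the upstream genes 1 to 2 lower and 1 to 3 higher, and 6 to 10 members kept their rank per length in MC-F7 and 6 to 8 in MT-F7. The log2 ratio of the summed KLF level was -0.59, and between -0.68 and -0.49 with other scalings and without single libraries. With all 17 KLF genes as denominator, the KLF5 share differed by 3.40 points in place of 7.29, that of KLF10 by -4.41 in place of -2.26 and that of KLF7 by 0.69 in place of 1.16. Per length, the difference was -5.66 points for KLF13 in place of -2.92, -1.02 for KLF6 in place of -2.41 and 3.57 for KLF16 in place of 1.24. The KLF16 difference was -0.35 without MT-F7 replicate 1 and 2.46 without MT-F7 replicate 3.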
